A study of Mus musculus with 4 samples.

Results

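The transcripts described here are those of fibrinogen and of the plasmin system that dissolves fibrin: Fga, Fgb, Fgg, Plg, Serpinf2, Cpb2, Plat, Plau and Plaur. They were chosen by gene symbol, and all 9 were found among the 24493 gene symbols of the table. RNA sequencing compared mouse hepatocytes in 3D culture (Hep_3D, n = 2) with biliary cells derived from hepatocytes and kept in 2D culture (Bil_2D, n = 2). The cells were of C57BL/6 background and untreated. Clones 15C7 and 19H5 each gave a library per state, with 15C7 as replicate 1 and 19H5 as replicate 2. All hepatocyte libraries were from 3D and all biliary ones from 2D culture, so cell state and culture format cannot be told apart. Each library is 1 culture of 1 clone, and the labels do not say whether the clones came from separate animals, so p-values measure only the spread between these libraries. Values are TPM, transcripts scaled for length and for the total of the library, and sequencing depth was unknown.

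Fibrinogen is a plasma protein made by hepatocytes from paired alpha, beta and gamma chains, encoded by Fga, Fgb and Fgg, and thrombin turns it into the fibrin mesh of a clot. Plasmin, cut from plasminogen (Plg) by the tissue activator (Plat) or by urokinase (Plau), breaks fibrin down. Urokinase works at the cell surface on its receptor (Plaur), alpha-2-antiplasmin (Serpinf2) blocks plasmin, and activated Cpb2, a carboxypeptidase, trims from fibrin the lysines to which plasminogen binds. In liver, fibrinogen and plasminogen are products of hepatocytes, and the urokinase receptor is known for its rise in migrating and injured epithelium.

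Hepatocyte markers, 7 of 8 of them matched by symbol, summed to 50414 and 49184 TPM in Hep_3D, against 1815 and 277 TPM in Bil_2D. The 6 biliary markers used summed to 13129 and 9372 TPM in Hep_3D, against 5238 and 8340.4 TPM in Bil_2D. Among them Krt19 had 1.12 and 15.9 TPM in Hep_3D, against 752 and 1615 TPM in Bil_2D, while Epcam and Cldn4 were at or under 2.59 TPM in every library and Spp1 was higher in Hep_3D (13093 and 9284 TPM) than in Bil_2D (4176 and 6092 TPM). Summed markers of megakaryocytes, leukocytes and endothelium, which can also express members of this system, lay between 0.084 and 13.5 TPM in every library. Fibroblast and stellate markers summed to 179.7 and 3.44 TPM in Hep_3D, against 4.07 and 1.12 TPM in Bil_2D, of which Dcn alone gave 178 TPM in Hep_3D replicate 1. In bulk RNA, fewer cells of a type and less RNA per cell cannot be told apart.

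Fibrinogen, plasminogen and the 2 brakes on fibrin breakdown were higher in Hep_3D, and urokinase and its receptor were lower. All 9 genes had at least 1 TPM in at least 2 libraries and were tested with limma on log2(TPM + 1), with p-values adjusted over all 12336 genes tested. Plau reached this filter only through Bil_2D and Plg only through Hep_3D, so their place in the counts of the 9 genes is a description. At an adjusted p under 0.05, 6 rose (Fga, Fgb, Fgg, Plg, Serpinf2 and Cpb2) and 2 fell (Plau and Plaur), beside 6.80% of all genes called higher and 51.9% called lower (58.7% in either direction). TPM sums to the same total in every library, and the median log2 fold change over the genes tested stood at -0.73. Rescaled TPM, for which each library was divided by a size factor (median-of-ratios scaling, the median over genes of a library's ratio to the mean library), had a median of -0.02. The counts were again 6 and 2 in rescaled TPM, beside 11.9% and 9.54% of all genes (21.4% in either direction).

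The groups did not overlap for any of the 9 genes on the TPM scale, with 6 higher and 3 lower, beside 11.1% and 71.9% of all genes. In rescaled TPM 6 were higher and 2 lower without overlap, beside 33.6% and 34.7%, and the groups overlapped for Plat. On the TPM scale Serpinf2 lost its call without either Hep_3D library, and no rise was lost without either Bil_2D library. In rescaled TPM only Fgg, Plg and Plaur kept the call without either Hep_3D library. Without either Bil_2D library the rises kept it there, and Plau and Plaur lost it. Fewer of all genes were called too with any 1 library left out, on both scales. In these fits the lone library is assumed to vary like the other group.

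**Figure D1:**
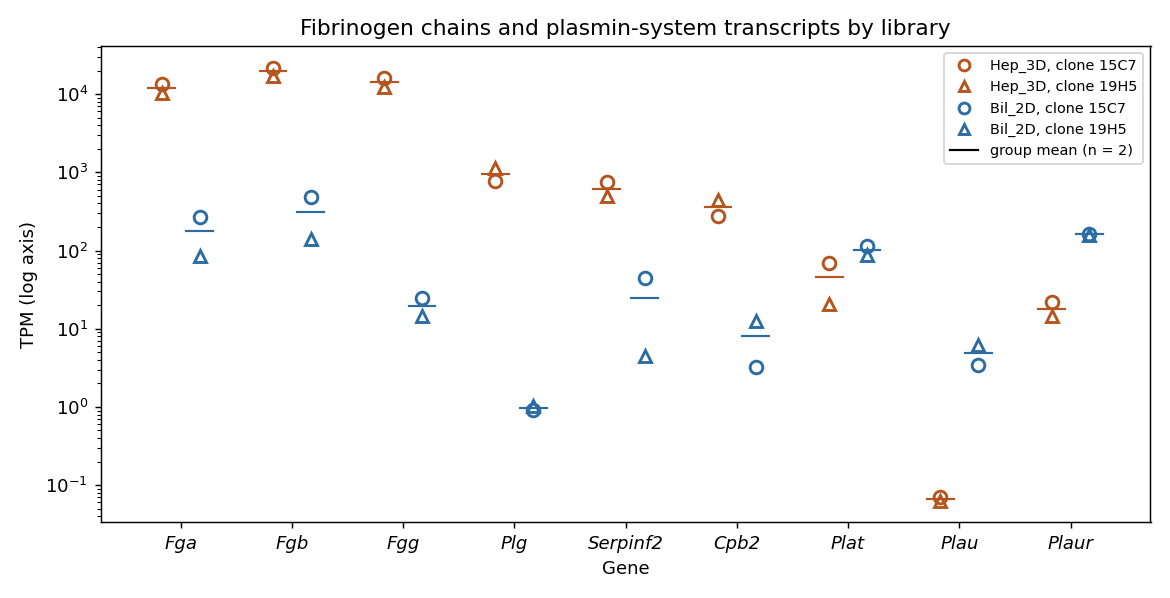
TPM of the 9 genes in each library on a log axis, with Hep_3D left of Bil_2D, circles for clone 15C7, triangles for clone 19H5 and a line at the group mean (n = 2). The fibrinogen chains lie at 10221 TPM or more in Hep_3D, and Plau is under 0.1 TPM there.

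The fibrinogen chains were among the most abundant transcripts of the hepatocyte cultures. Their summed TPM was 5.13% of the library total in clone 15C7 and 3.997% in clone 19H5 of Hep_3D, against 0.0779% and 0.0238% in Bil_2D. Fgb, the beta chain (chromosome 3, 83042246 to 83049863, GRCm38.p6), had 21841 and 17299.6 TPM in Hep_3D, against 485 and 139 TPM in Bil_2D. It ranked 5 and 8 among all gene symbols in Hep_3D, and 320 and 1089 in Bil_2D. Fgb rose with a log2 fold change of 6.22 (SE 0.64, adjusted p = 0.00582 in limma), or 7.03 in rescaled TPM.

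Fga, the alpha chain (chromosome 3, 83026153 to 83033627), had 13382 and 10221 TPM in Hep_3D, against 270.1 and 84.4 TPM in Bil_2D. Its log2 fold change of 6.26 (SE 0.60, adjusted p = 0.00558 in limma) was close to that of Fgb. For both chains the lowest Hep_3D library lay far above the highest Bil_2D library. As a ratio, though not in TPM units, the Bil_2D libraries differed more from each other than the Hep_3D libraries did.

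Fgg, the gamma chain (chromosome 3, 83007724 to 83015056), had 16058 and 12446 TPM in Hep_3D, against 24.4 and 14.4 TPM in Bil_2D. It stood beside the other chains in Hep_3D and far below them in Bil_2D, where it ranked 5239 and 6751 among all gene symbols. The log2 fold change of Fgg was 9.48 (SE 0.30, adjusted p = 0.00165 in limma), and 10.27 in rescaled TPM. In rescaled TPM with a Hep_3D library left out, Fga and Fgb no longer passed (adjusted p from 0.0515 to 0.0572), while their log2 fold changes stayed between 6.89 and 7.25.

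The make-up of fibrinogen was read from chain ratios within a library, which do not depend on how libraries are scaled. The ratio of Fgg to Fgb in TPM was 0.735 and 0.719 in Hep_3D, against 0.0503 and 0.104 in Bil_2D. The groups did not overlap, and relative to Fgb, Fgg was 10.1-fold higher in Hep_3D (log2 difference 3.33, and 3.87 and 2.79 within clones 15C7 and 19H5). The ratio of Fga to Fgb was 0.613 and 0.591 in Hep_3D, against 0.557 and 0.607 in Bil_2D, a log2 difference of 0.05 with overlapping groups. That of Fga to Fgg was 0.833 and 0.821 in Hep_3D, against 11.1 and 5.85 in Bil_2D (log2 difference -3.28). With 2 libraries a state, a two-sided exact permutation test cannot go below p = 0.333, which the ratio of Fgg to Fgb gave (0.4 adjusted over 6 ratios), and the ratio of Fga to Fgb gave p = 0.667. The level of one chain against another rests on the transcript lengths of an annotation that the sources used here do not name, so these ratios are read between states and not as chain stoichiometry.

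**Figure D2:**
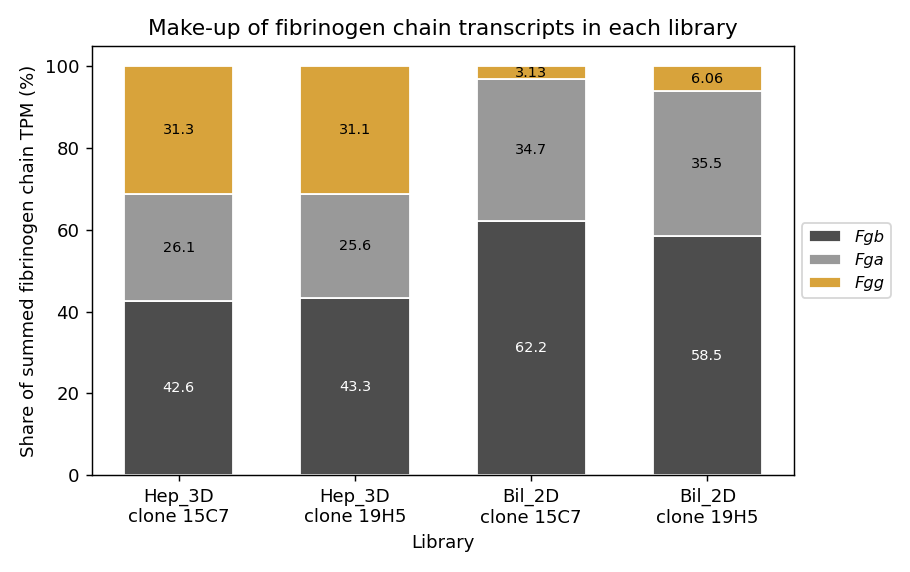
Share of the summed TPM of Fga, Fgb and Fgg that each chain holds, in percent, with a stacked bar for each library. Fgg holds 31.3% and 31.1% in Hep_3D, against 3.13% and 6.06% in Bil_2D.

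The chains lie side by side within 42.1 kb of chromosome 3, Fgg and Fga on the forward strand and Fgb facing them on the reverse strand. The 250 bases before each start are shown because the 3 genes rose together while Fgg had the lowest TPM of the chains in Bil_2D, and the bases before Plaur because this gene fell. They are from the RefSeq promoter table on build GRCm38.p6, which matched 6 of the 9 genes (not Plg, Plat and Plau). Capitals mark matches, on either strand, to CTGGGA (core of the interleukin-6 response element), TTNNGNAA (C/EBP) and TGANTCA (AP-1), with N for any base. Each reads 5′ to 3′ on the gene's own strand, and the window of Plaur ends at a transcript start inside the span annotated for the gene.
Fga, chr3:83025903-83026152, forward strand: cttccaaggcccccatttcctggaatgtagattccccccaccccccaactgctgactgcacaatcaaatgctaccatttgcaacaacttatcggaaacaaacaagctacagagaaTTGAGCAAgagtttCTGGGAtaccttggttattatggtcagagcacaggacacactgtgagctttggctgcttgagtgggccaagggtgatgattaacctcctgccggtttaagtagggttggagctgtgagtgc
Fgb, chr3:83049864-83050113, reverse strand: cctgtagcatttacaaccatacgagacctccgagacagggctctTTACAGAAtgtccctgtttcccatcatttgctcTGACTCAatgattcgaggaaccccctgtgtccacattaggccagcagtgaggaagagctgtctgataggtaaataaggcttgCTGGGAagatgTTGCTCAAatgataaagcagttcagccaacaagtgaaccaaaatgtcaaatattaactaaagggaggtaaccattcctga
Fgg, chr3:83007474-83007723, forward strand: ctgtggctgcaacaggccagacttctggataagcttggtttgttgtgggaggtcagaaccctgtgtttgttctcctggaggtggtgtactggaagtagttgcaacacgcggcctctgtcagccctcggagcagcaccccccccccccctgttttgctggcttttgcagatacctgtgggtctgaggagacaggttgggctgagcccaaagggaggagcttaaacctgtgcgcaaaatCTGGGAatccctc
Plaur, chr7:24462233-24462482, forward strand: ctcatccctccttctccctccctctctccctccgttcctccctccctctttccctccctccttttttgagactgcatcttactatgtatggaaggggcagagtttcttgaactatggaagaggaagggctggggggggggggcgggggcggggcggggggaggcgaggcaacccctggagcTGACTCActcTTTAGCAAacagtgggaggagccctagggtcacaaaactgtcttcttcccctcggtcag

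All 3 chains hold CTGGGA, which 27.0% of the 32851 windows of this length in the table hold. It begins 121, 91 and 13 bases before the start of Fga, Fgb and Fgg. A C/EBP match, present in 36.8% of windows, stood before Fga and Plaur, and 2 stood before Fgb. The AP-1 letters, present in 6.75% of windows, were found before Fgb and Plaur, and none of the 3 motifs was found before Serpinf2 or Cpb2. No motif match here overlaps another. These are matches of letters and not measured binding.

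Plasminogen and the inhibitors of fibrin breakdown were also higher in Hep_3D. Plg (chromosome 17, 12378609 to 12419384), the precursor of plasmin, had 785 and 1119 TPM in Hep_3D, against 0.902 and 1.03 TPM in Bil_2D. It was the lowest of the 9 genes in both Bil_2D libraries and the fourth highest in both Hep_3D libraries. Plg rose with a log2 fold change of 8.90 (SE 0.21, adjusted p = 0.00131 in limma), or 9.49 in rescaled TPM. It reached the filter only through Hep_3D, so its call is a description.

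Serpinf2 (chromosome 11, 75431736 to 75439501), the main inhibitor of free plasmin, had 744 and 497 TPM in Hep_3D, against 45.2 and 4.42 TPM in Bil_2D. The groups did not overlap, but the Bil_2D libraries were 10.2-fold apart. Serpinf2 rose with a log2 fold change of 5.27 (SE 1.08, adjusted p = 0.0177 in limma). Leaving out Hep_3D replicate 1 or 2 gave an adjusted p of 0.0871 or 0.0775. The ratio of Plg to Serpinf2 was 1.06 and 2.25 in Hep_3D, against 0.02 and 0.234 in Bil_2D (log2 difference 4.50, exact permutation p = 0.333).

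Cpb2 (chromosome 14, 75242287 to 75283555), the carboxypeptidase that slows fibrin breakdown, had 274 and 443.8 TPM in Hep_3D, against 3.25 and 12.7 TPM in Bil_2D. Both states had more in clone 19H5, and the groups did not overlap. The log2 fold change of Cpb2 was 5.52 (SE 0.63, adjusted p = 0.00645 in limma).

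Urokinase and its receptor were lower in Hep_3D, and the tissue activator did not pass. Plaur (chromosome 7, 24460937 to 24475970), the surface receptor of urokinase, had 21.8 and 14.4 TPM in Hep_3D, against 163 and 159 TPM in Bil_2D. The Bil_2D libraries were nearly equal, and in clone 19H5 of Bil_2D Plaur was the highest of the 9 genes. Plaur fell by 3.11 on the log2 scale (SE 0.23, adjusted p = 0.00446 in limma), and by 2.31 in rescaled TPM (adjusted p = 0.00896). Without Bil_2D replicates 1 and 2 its adjusted p on that scale was 0.0819 and 0.0922.

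Plau (chromosome 14, 20836662 to 20843388), urokinase itself, had 0.0707 and 0.0634 TPM in Hep_3D, against 3.44 and 6.28 TPM in Bil_2D. It was the least abundant of the 9 genes in Hep_3D and low in Bil_2D, below its receptor in each library. Plau fell by 2.41 on the log2(TPM + 1) scale (SE 0.32, adjusted p = 0.00762 in limma), which understates a change between values this low, and by 2.06 in rescaled TPM. The gene reached the filter only through Bil_2D, so its call is a description. In rescaled TPM its adjusted p was 0.074 to 0.112 with any of the 4 libraries left out.

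Plat (chromosome 8, 22757722 to 22782848), the tissue activator, had 69.9 and 20.5 TPM in Hep_3D, against 113 and 87.3 TPM in Bil_2D. Both Hep_3D libraries were lower, but replicate 1 was close to the Bil_2D range. Its log2 fold change of -1.36 (SE 0.61) did not pass (adjusted p = 0.119 in limma), and it was -0.56 in rescaled TPM (adjusted p = 0.536), where within clone 15C7 the difference was 0.13. With the clone as a replicate block Plat passed narrowly on the TPM scale (adjusted p = 0.0499). It also passed without Hep_3D replicate 1 (log2 fold change -2.22, adjusted p = 0.0298).

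Ratios that hold Plau rest on its level of under 0.1 TPM in Hep_3D. The ratio of Plau to Plat was 0.00101 and 0.00309 in Hep_3D, against 0.0304 and 0.0719 in Bil_2D (log2 difference -4.72, exact permutation p = 0.333). Plaur exceeded Plau 308.5-fold and 228-fold in Hep_3D, against 47.4-fold and 25.3-fold in Bil_2D, but with 1 TPM added to both genes this log2 difference of 2.94 turned to -0.69. In order of mean level the 9 genes ran Fgb, Fgg, Fga, Plg, Serpinf2, Cpb2, Plat, Plaur, Plau in Hep_3D, where Fgg overlapped Fga and Plat overlapped Plaur. In Bil_2D the order was Fgb, Fga, Plaur, Plat, Serpinf2, Fgg, Cpb2, Plau, Plg, where Fgb overlapped Fga, Fga overlapped Plaur, Serpinf2 overlapped Fgg and Cpb2 overlapped Plau.

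**Figure D3:**
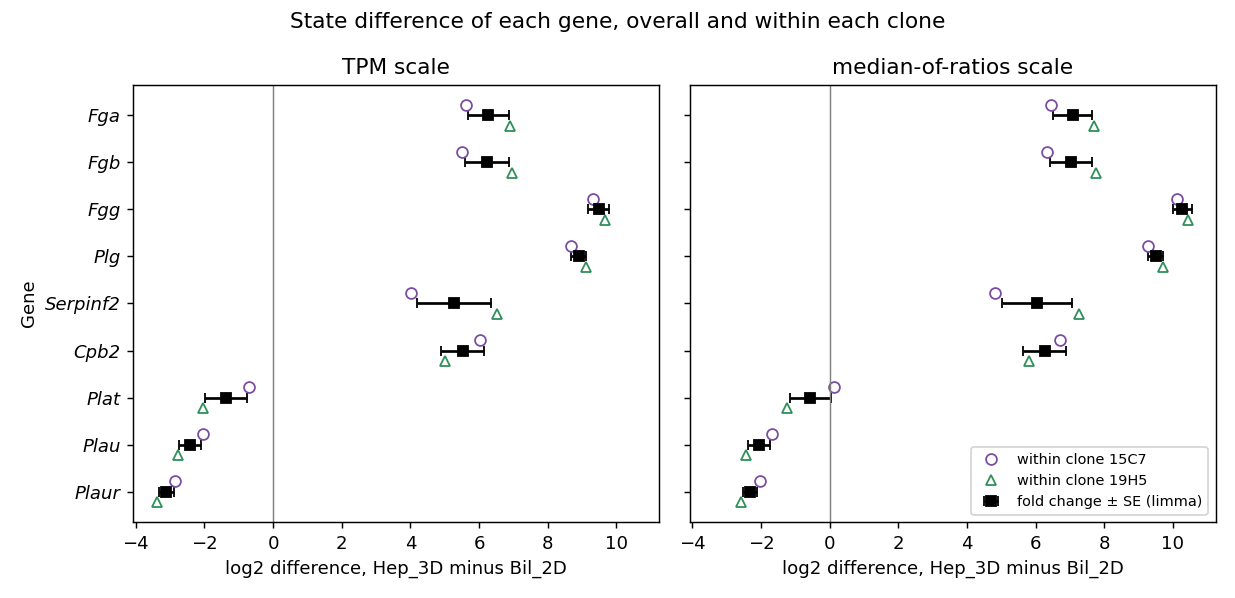
Log2 difference, Hep_3D minus Bil_2D, of each gene on the TPM scale (left) and in rescaled TPM (right). Squares are limma's fold change ± SE (n = 2 per group), circles and triangles the difference within clones 15C7 and 19H5, and Plat in clone 15C7 is the only difference that changes side between the scales.

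The clones were compared with cell state as a term, 15C7 minus 19H5. This fit has 1 residual degree of freedom, so a lack of calls does not show that the clones are alike. Of all 12336 genes 0 passed in limma (0.00%), with 1599 at an unadjusted p under 0.05, and the adjusted p of the 9 genes ran from 0.326 (Cpb2) to 0.603 (Plau). Fgg and Cpb2 had unadjusted p of 0.0309 and 0.0225. In Bil_2D, clone 15C7 had 3.20 times the Fga, 3.48 times the Fgb and 1.69 times the Fgg of clone 19H5, while in Hep_3D these ratios were 1.31, 1.26 and 1.29. Cpb2 and Plg ran the other way, at 0.256 and 0.874 in Bil_2D and at 0.617 and 0.702 in Hep_3D. Plau did so in Bil_2D alone (0.548, against 1.115 in Hep_3D). Beside these values, 6 of the 7 hepatocyte markers were higher in clone 15C7 than in 19H5 within Bil_2D, among them Alb at 7.62 times and Ttr at 9.29 times, while Tat stood at 0.342. Whether the state difference itself differs between clones could not be tested, because 4 libraries leave no residual degrees of freedom for it, and the part of hepatocyte marker levels in the clone values was not tested.

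**Figure D4:**
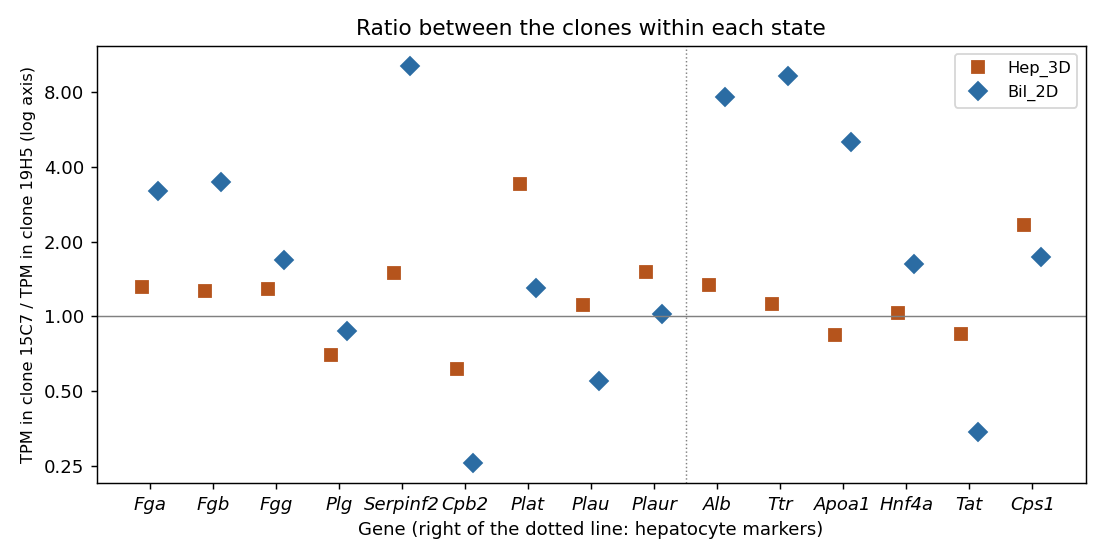
TPM in clone 15C7 divided by TPM in clone 19H5 within Hep_3D (squares) and within Bil_2D (diamonds), on a log axis, with hepatocyte markers above 0 in every library right of the dotted line. Serpinf2, Fga and Fgb lie at 1.497, 1.31 and 1.26 in Hep_3D and at 10.2, 3.20 and 3.48 in Bil_2D.

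The partners of these genes were described from 5 lists of 38 genes, of which 31 were tested, 15 rose and 8 fell, beside 6.80% and 51.9% of all genes. In rescaled TPM 18 rose and 6 fell, beside 11.9% and 9.54%, and with a library left out on that scale 10 to 12 rose and 0 to 2 fell. F13b, Serping1, Tfpi2, A2m, Hrg, Lrp1 and F12 reached the filter only through Hep_3D and F11 only through Bil_2D, so their place in these counts is a description. Of the 4 tested genes of fibrin formation and fibrinogen relatives, 3 rose and 1 fell (median log2 fold change 5.14, against -0.73 for all genes). Fgl1, a fibrinogen-like protein secreted by hepatocytes, had 2241 and 1181 TPM in Hep_3D, against 9.03 and 3.67 TPM in Bil_2D. F2, the precursor of thrombin, had 1017 and 1121 TPM in Hep_3D, against 48.8 and 10.3 TPM in Bil_2D, and F13b, the carrier subunit of the factor that cross-links fibrin, had 38.5 and 23.8 TPM, against 0.152 and 0.104 TPM. The catalytic subunit F13a1 was listed at 0 in 3 libraries and was not tested. Tgm2, the tissue transglutaminase, fell by 1.10 (log2), against -0.29 in rescaled TPM (adjusted p = 0.197).

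Among 5 tested inhibitors of plasmin and of its activators, 4 rose and 1 did not pass (median log2 fold change 3.78, that of Tfpi2), beside 6.80% of all genes called higher. In rescaled TPM 4 rose, beside 11.9% of all genes, and Serping1 and A2m lost the call with either Bil_2D library left out. Pzp, a plasma protease trap, had 1331 and 1095 TPM in Hep_3D, against 2.22 and 1.08 TPM in Bil_2D. Serping1, the C1 inhibitor, had 712 and 165 TPM in Hep_3D, against 1.08 and 0.471 TPM in Bil_2D, and rose with a log2 fold change of 7.62. Tfpi2, a Kunitz inhibitor of plasmin, had 14.8 and 11.8 TPM in Hep_3D and was listed at 0.0688 and 0 TPM in Bil_2D. A2m had 14.2 and 7.68 TPM in Hep_3D and was listed at 0 in both Bil_2D libraries. Reads of Pzp and A2m, which are paralogs, may have been shared, and their values are uncertain.

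Serpine2, protease nexin 1, which inhibits urokinase and thrombin, had 74.8 and 5.99 TPM in Hep_3D, against 191 and 45.1 TPM in Bil_2D, and did not pass (adjusted p = 0.256, but 0.0228 with the clone as a replicate block).

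Of 9 tested binding partners of plasminogen, urokinase and their receptor, 2 rose and 6 fell (median log2 fold change -2.35), beside 6.80% and 51.9% of all genes. The 6 of 9 that fell are near that 51.9%. In rescaled TPM 2 rose and 6 fell, beside 11.9% and 9.54% of all genes, but fewer fell there with any 1 library left out. The 2 that rose are plasma proteins: Vtn, vitronectin, a ligand of the urokinase receptor, and Hrg, which binds plasminogen. Vtn had 3115 and 3488 TPM in Hep_3D, against 4.39 and 2.57 TPM in Bil_2D, and Hrg had 344 and 479 TPM, against 0.327 and 0.0996 TPM. Those that fell act at the cell surface or bind plasminogen there. Thbd, thrombomodulin, which turns thrombin towards activation of Cpb2, had 2.34 and 2.80 TPM in Hep_3D, against 67.9 and 63.1 TPM in Bil_2D (log2 fold change -4.22). Plgrkt, a membrane plasminogen receptor, had 9.03 and 13.2 TPM in Hep_3D, against 61.8 and 109 TPM in Bil_2D. The annexin A2 pair, Anxa2 and S100a10, which holds plasminogen and tissue activator together, fell by 2.77 and 2.67 on the log2 scale. Eno1, an enolase that also binds plasminogen, and Igf2r fell as well, and Eno1 has a near-identical copy in the mouse, so its value is uncertain. Lrp1, which clears complexes of activator and inhibitor, had 85.8 and 48.4 TPM in Hep_3D, against 15.7 and 0.761 TPM in Bil_2D, and did not pass (adjusted p = 0.0539, but 0.0218 with the clone as a replicate block and 0.0347 without Bil_2D replicate 1).

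In the contact phase, through which kallikrein can also activate urokinase, 2 of 3 tested genes rose (median log2 fold change 7.27), beside 6.80% of all genes. Kng1, kininogen, had 3627 and 4262 TPM in Hep_3D, against 5.79 and 7.98 TPM in Bil_2D, and F12 had 302 and 181 TPM, against 0.659 and 0.387 TPM. Kng1 has a close mouse paralog, so its value is uncertain. F11 did not pass (adjusted p = 0.797) but did without Hep_3D replicate 2, and Klkb1, the precursor of plasma kallikrein, was at or under 0.43 TPM in every library and was not tested.

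Of 10 genes that regulate fibrinogen transcription, 4 rose and 1 fell (median log2 fold change 0.56), beside 6.80% and 51.9% of all genes. In rescaled TPM 7 rose and 0 fell, beside 11.9% and 9.54%, and fewer rose with any 1 of the 4 libraries left out. On the TPM scale fewer rose as well with any 1 library left out, and the fall was lost without Bil_2D replicate 1. Cebpa, a factor of mature hepatocytes, had 106 and 77.4 TPM in Hep_3D, against 4.91 and 4.65 TPM in Bil_2D (log2 fold change 3.99, adjusted p = 0.00312 in limma). Il6ra, the interleukin-6 receptor, had 15.7 and 23.4 TPM in Hep_3D, against 2.68 and 3.03 TPM in Bil_2D. Socs3, a feedback inhibitor induced by that receptor's signal, had 166 and 149.98 TPM in Hep_3D, against 36.0 and 58.4 TPM in Bil_2D. It rose by a log2 fold change of 1.76, with an adjusted p of 0.0513 without Hep_3D replicate 1. The shared subunit Il6st and Stat3, which carries the signal to the nucleus, did not pass on the TPM scale (adjusted p = 0.201 and 0.0542). With the clone as a replicate block Stat3 passed (adjusted p = 0.0477), and in rescaled TPM its adjusted p was 0.0112 but up to 0.0952, above the threshold, with any 1 library left out, while Il6st changed sign. Osmr, the oncostatin M receptor, rose with a log2 fold change of 0.99 (adjusted p = 0.0234 in limma). The call of Osmr was lost with any 1 library left out. Cebpd, another C/EBP factor, did not pass on the TPM scale (adjusted p = 0.0613 in limma). In rescaled TPM Cebpd passed (log2 fold change 1.48, adjusted p = 0.0197 in limma), but not with any 1 library left out.

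Cebpb, the C/EBP factor of the acute-phase response, had 134 and 153 TPM in Hep_3D, against 295 and 265.5 TPM in Bil_2D. It fell by 0.96 (log2) in TPM, against -0.14 in rescaled TPM (adjusted p = 0.51), and its adjusted p was 0.0545 in TPM without Bil_2D replicate 1.

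**Figure D5:**
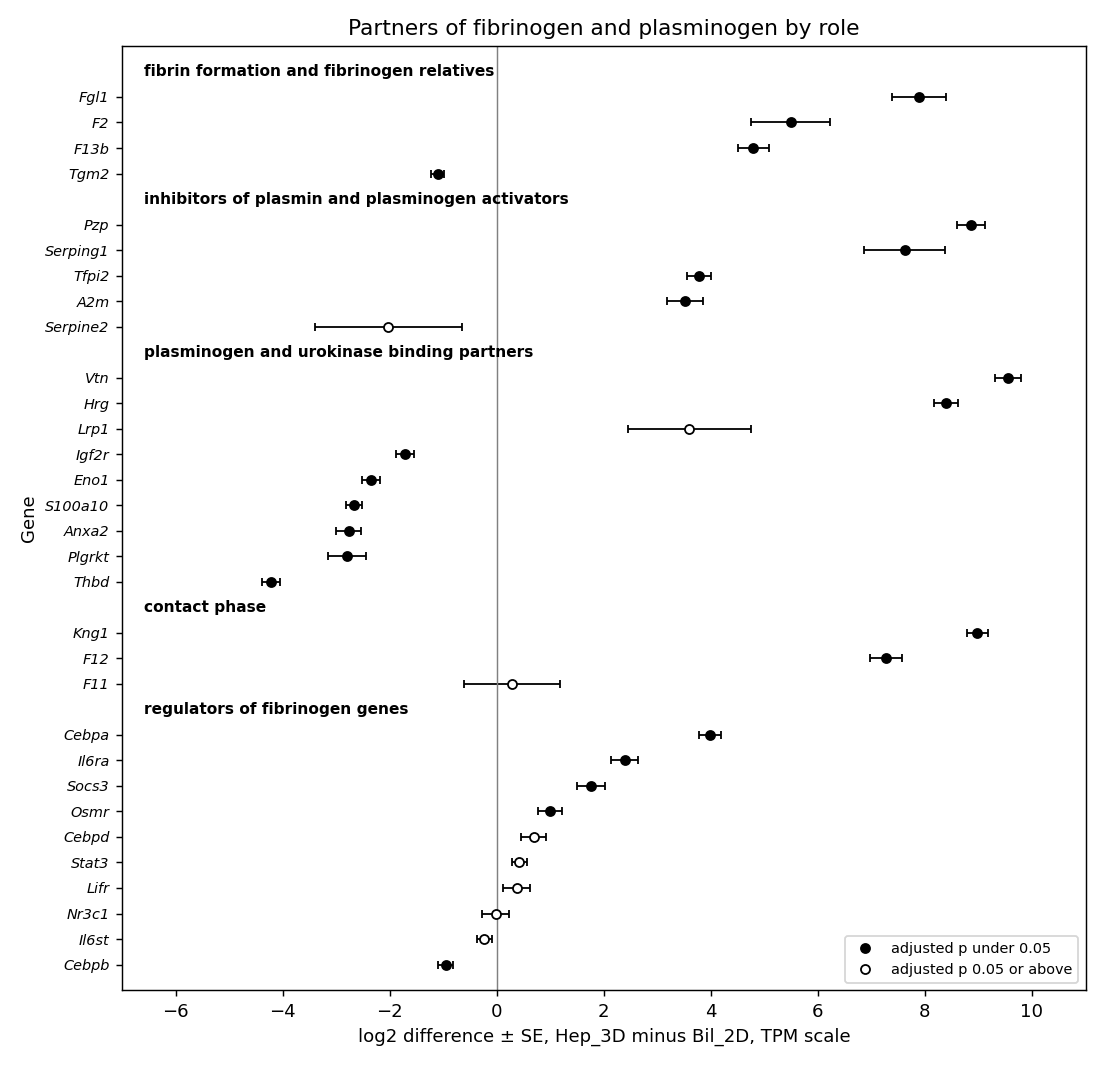
Log2 difference ± SE, Hep_3D minus Bil_2D on the TPM scale (n = 2 per group), of the tested genes of 5 lists, with filled points for an adjusted p under 0.05. Vtn, Kng1 and Pzp lie at 9.55, 8.98 and 8.87, and Thbd and Plgrkt at -4.22 and -2.80.

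Over the 4 libraries, the genes whose log2(TPM + 1) values lay closest to the mean profile of the fibrinogen chains were Alb, Apoa1, Saa1, Orm1 and Hpx, with Euclidean distances of 1.58, 1.58, 2.42, 2.61 and 3.55. Alb, for albumin, had 15033 and 11216.5 TPM in Hep_3D, against 140.04 and 18.4 TPM in Bil_2D. Closest to Plau were Adam12, Ch25h, Mmp13, Palm3 and S100a3, at distances of 0.223 to 0.552. Adam12, a metalloprotease, had 0.0496 and 0.213 TPM in Hep_3D, against 3.32 and 6.83 TPM in Bil_2D. With 4 libraries in 2 states, such closeness mostly says that a gene has a like level in each state.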

How the data were processed

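The authors deposited a table of TPM for 24493 gene symbols in 4 libraries, per the file headers. Salmon, DESeq2 and mm10 appear in the submitters' processing notes without versions or roles, and the transcript annotation is not given in the sources used here. Extraction used a Qiagen kit, per the labels' protocols. TPM keeps no depth, so counting error is unknown and no count model was fitted.

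Groups came from sample titles. A filter of 1 TPM or more in 2 or more libraries kept 12336 genes. Their log2(TPM + 1) values entered limma 3.58.1 in R 4.3.3 (eBayes with a trend), Hep_3D against Bil_2D, without a clone term, and p-values were adjusted by the Benjamini-Hochberg method over all of them. A gene that passes the filter only through 1 group has at least 1 library under 1 TPM in the other by construction. Clones were compared with state as a term. Clone numbers in the labels pair the libraries, and same-clone deviations from group means correlated at 0.414 across genes. Median-of-ratios size factors used genes at 1 TPM or more in all 4 libraries, and set the groups apart by 0.82 log2 units. The limma fit was tested on simulated data without clone pairing and with few changed genes. These data differ in both, so that test does not bear on the calls here. The members, lists and scales were chosen with earlier results of these data known. Named genes were the 9 members, list genes including the 3 largest changes called in each direction, and the 5 nearest genes by Euclidean distance to the fibrinogen profile and to Plau. Some genes of the lists, a ratio and a motif were not analysed here and enter no count of a list, ratio or motif. Gene coordinates and promoters are from RefSeq, GRCm38.p6. Other scalings, pseudocounts, filters, variance models, the clone block and left-out libraries were tried.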

Additional observations from a re-analysis of the deposited data

Results flagged for a closer look

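In the genes described, the 2 clones differed in direction on the TPM scale for 3 of the regulators and contact phase genes, each with 1 library per clone and state, and the difference between clones was not tested. In rescaled TPM, Lifr (1.54 in clone 15C7 and 0.72 in clone 19H5) and Nr3c1 (0.92 and 0.54) had the same direction in both clones, and F11 did not (2.31 and -0.62). Log2 differences on the TPM scale, Hep_3D minus Bil_2D, were 1.67 in clone 15C7 and -1.08 in clone 19H5 for F11, a contact phase protease. They were 0.77 and -0.025 for Lifr, a receptor of the interleukin-6 family, in the same order of clones. Nr3c1, the glucocorticoid receptor, had 0.16 in clone 15C7 and -0.21 in clone 19H5.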

How the results depend on the processing

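Of 167 alternative values of the 9 state differences, 148 kept direction and side of the threshold, 16 lost the call, 2 gained it and 1 reversed. The reversal was Plat, at 0.28 in rescaled TPM without Hep_3D replicate 2. The 86 alternative values for the clones kept theirs, none past the threshold. Over all genes, 7241 were called, against 2642 after median-of-ratios scaling, 3100 after quantile normalization, 3350 without the 50 most abundant genes, 3194 after median-of-ratios scaling with the clone as a replicate block, and 2627 to 4537 with a library left out. With median-of-ratios scaling the count was 818 and 611 without Hep_3D replicate 1 and 2, and 340.0 and 188 without Bil_2D replicate 1 and 2. With the replicate block alone 8150 were called, and the block changed no call among the 9 genes except that of Plat. Members called higher were 3 without the 50 most abundant genes, which include the 3 fibrinogen chains, and 2 to 6 with a library left out. Members called lower were 1 with a filter of 5 TPM, which removes Plau, and 0 to 3 with a library left out. Of the pathway list genes, 0 to 8 were called lower with a library left out. Between clones 1 gene was called without the 50 most abundant genes, against 0. Of 588 alternative values of pathway list genes, 21 reversed, all in genes with no call in TPM without a clone term (Il6st, Nr3c1, F11 and Serpine2). On the median-of-ratios, quantile, without-50 and blocked median-of-ratios fits, Il6st stood at 0.56, 0.45, 0.31 and 0.56, and Nr3c1 at 0.73, 0.65, 0.50 and 0.73. With median-of-ratios scaling and Hep_3D replicate 1, Hep_3D replicate 2, Bil_2D replicate 1 or Bil_2D replicate 2 left out, Il6st stood at 0.51, 0.62, 0.50 and 0.62, and Nr3c1 at 0.86, 0.60, 0.41 and 1.05. In that scaling F11 stood at -0.52 without Hep_3D replicate 1 and Serpine2 at 0.47 without Hep_3D replicate 2. In TPM with a library left out, F11 ran from -0.99 to 1.57 and Nr3c1 from -0.32 to 0.27, at 0.079 without Hep_3D replicate 1. With 1 TPM added to both genes, the log2 difference in the ratio of Plaur to Plau was -0.69, and Fga to Fgb ran from -0.0117 (without Bil_2D replicate 1) to 0.11 with a library left out. The cause of these shifts was not tested.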

Other observations

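The nearest protein-coding neighbours of the fibrinogen cluster, of Serpinf2 and of Plg were read by a rule set after the data were seen. Plrg1, a splicing factor that begins 5.67 kb beyond Fgb, had 32.0 and 25.5 TPM in Hep_3D, against 46.9 and 41.3 TPM in Bil_2D. Its log2 fold change was -0.60 in TPM (adjusted p = 0.0422 in limma) and 0.19 in rescaled TPM (adjusted p = 0.428). On the other side of the cluster, Lrat, farther off at 103.75 kb, was under 0.1 TPM in all 4 libraries, at 0.029 to 0.0789 TPM.

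Serpinf1, the pigment epithelium-derived factor, lies 9.11 kb from Serpinf2 on chromosome 11. It had 53.4 and 24.4 TPM in Hep_3D, against 3.86 and 0.655 TPM in Bil_2D, and rose with a log2 fold change of 3.71 (SE 0.67, adjusted p = 0.013 in limma). Serpinf1 reached the filter only through Hep_3D, so its call is a description. Clone 15C7 had more Serpinf1 than clone 19H5 in both states, as it had more Serpinf2. Wdr81, on the other side of Serpinf2 at 1.44 kb, had 11.9 and 12.2 TPM in Hep_3D, against 21.8 and 25.0 TPM in Bil_2D, a log2 fold change of -0.90 in TPM (adjusted p = 0.0118 in limma) and -0.13 in rescaled TPM (adjusted p = 0.604). Beside Plg, Slc22a3 at 0.588 kb was at or under 0.0407 TPM in every library. Map3k4, on the other side of Plg at 59.8 kb, had 9.01 and 7.44 TPM in Hep_3D, against 14.2 and 13.1 TPM in Bil_2D.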
